A study of Mus musculus with 4 samples.

Results

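The genes examined here were those of the myosin light chains of striated muscle, *Mylpf*, *Myl2*, *Myl7*, *Myl1*, *Myl3*, *Myl4* and *Myl6b*, together with *Mylk2*, which encodes the light chain kinase of skeletal muscle. They were chosen by name: every probe on the array that was not a control and carried one of these symbols was taken. This gave 8 of 24786 named genes and 16 of 56601 probes. The samples were 4 tissues of mouse embryos of the ICR stock, with no mutation and no experimental treatment given in the labels. MMA was the medial part of the mandibular arch from 12 embryos at E9.5. LLS, the lateral lingual swellings, and LMA, the lateral part of the mandibular arch, each came from 4 embryos at E11.5, and T, the median tongue, from 4 embryos at E14.5. The embryos of a tissue were pooled in 1 tube, labelled with a single dye and hybridised to 1 Agilent array each, so there were no replicates. The study set out to find genes particular to a tissue or stage of the developing jaw and tongue.

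Muscle myosin is a hexamer in which each heavy chain carries an essential and a regulatory light chain around its lever arm. The essential chains stiffen the lever arm, and the regulatory chains are phosphorylated by calmodulin-dependent light chain kinases, which modulates force. Fast, slow, atrial, ventricular and embryonic muscles use different members of the family, and the tongue is built largely from skeletal muscle whose precursors migrate into the arch from the occipital somites.

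Each level below is the processed signal of a probe on an arbitrary brightness scale, and each difference is one of log2 signal scaled to the 75th percentile over all probes of each array, so that a difference of 1 is 2-fold. The ± on a difference is the error that Feature Extraction, the scanner software, gave to the 2 spots. It does not include any spread between pools. Where a signal was not well above background on 1 of the arrays, the difference is a lower bound on its size and is given as at least so many fold. Signals of different probes are not compared with each other, since each probe has its own response. Of the 24786 genes, between 15028 (MMA) and 16330 (LMA) were well above background in a tissue, and 0 spots were saturated. Over 291 probes printed 10 times, a single-spot difference had an SD between 0.081 and 0.0832.

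The probe sequences set the limits of what follows, because probes of the same gene did not all report the same pattern and because the light chains are related to each other. Of 108 pairs of probes for different genes of the set, 1 pair shared an identical run of 15 or more bases, and the next longest run in any other pair was 11 bases. That pair was the *Myl3* probe and the brightest *Myl1* probe. The capitals mark the run of 18 bases common to both, and the first 30 bases of the *Myl1* probe are shown:

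Myl3 probe (chr9:110671632-110671926, mm9): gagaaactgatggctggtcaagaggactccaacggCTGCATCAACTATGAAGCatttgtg

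Myl1 probe (chr1:66971597-66972798, mm9): CTGCATCAACTATGAAGCttttgtcaaaca

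A second *Myl1* probe for the same transcript lacks this run, and its values are given beside those of the first. For *Mylpf*, the probe to the RefSeq transcript NM_016754 and the probe to the predicted transcript XM_006507421 gave unlike patterns. Of the first the whole sequence is shown and of the second the first 30 bases, since every level of *Mylpf* below depends on which of them is read:

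Mylpf NM_016754 probe (chr7:134356749-134356985, mm9): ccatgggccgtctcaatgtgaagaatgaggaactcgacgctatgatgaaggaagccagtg

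Mylpf XM_006507421 probe (chr7:134352835-134352894, mm9): aatagtcagtgacaaccagagacaagcgcg

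The *Mylpf* NM_016754 probe is 60 bases long and covers 237 bases of the genome, so it crosses an intron and matches spliced RNA. Of the 16 probes, 5 cross an intron in this way: the *Mylpf* NM_016754 probe, the *Myl3* probe, 1 probe of *Myl4* and 2 of *Myl1*. The *Myl4* probe of this kind (chr11:104445435-104445805, mm9) is the second of 2 probes for NM_010858, whose differences were close to each other throughout:

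Myl4 probe: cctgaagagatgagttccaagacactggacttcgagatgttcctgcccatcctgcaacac

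Read by the brightest probe of each gene, the set was higher in the tongue than in the lateral lingual swellings from which most of the anterior tongue forms. The brightest probe was the one with the highest mean signal over all arrays. T dominates that mean where its signal is far higher, so the choice favours probes that are high in T. In T against LLS, 7 of the 8 genes were higher by 2-fold or more and 0 were lower. The share of all genes compared was 13.0% for higher and 6.0% for lower. The median difference was 6.03 over the 8 genes and -0.079 over all genes. Against the lateral mandibular arch, 8 of 8 were higher in T (14.4% of all genes) and 0 were lower (7.17%), with a median of 4.54. With normexp background correction 6 of 8 were, as *Myl7* (0.76) and *Mylk2* (0.72) fell under 2-fold. That correction was run with an offset of 50 added to every signal, which by itself shrinks differences that involve dim signals. Against the E9.5 arch, 7 of 8 were higher in T (18.6% of all genes) and *Myl7* was lower (14.0% of all genes), with a median of 7.29. With the median over probes in place of the brightest probe, 7 genes were again higher by 2-fold or more in T than in LLS and 0 were lower. That median alters only genes with further measured probes. Read alone, the XM_006507421 probe of *Mylpf* (-0.20) and the AK017625 probe named *Myl6b* (-0.063) were not higher in T than in LLS. In bulk RNA such as this, fewer muscle cells and less of a transcript per muscle cell cannot be told apart.

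Differences among the 3 earlier tissues were smaller but already present. In LLS against MMA, 7 of the 8 genes could be compared, of which 5 were at least 2-fold higher (9.88% of all genes) and 1, *Myl7*, was lower (5.73%). In LMA against MMA, 5 of 7 were higher (10.7%) and *Myl7* was again lower (7.35%). Between both E11.5 tissues, 4 of 8 genes were at least 2-fold higher in LMA than in LLS, against 2.89% of all genes, and 0 were lower, against 3.73%. These 4 were *Myl4*, *Myl1*, *Myl3* and *Mylpf*. Counted in either direction, the share of all genes was 15.6% for LLS against MMA, 18.0% for LMA against MMA, 6.62% for LMA against LLS, 19.0% for T against LLS, 21.6% for T against LMA and 32.6% for T against MMA.

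**Figure D1:**
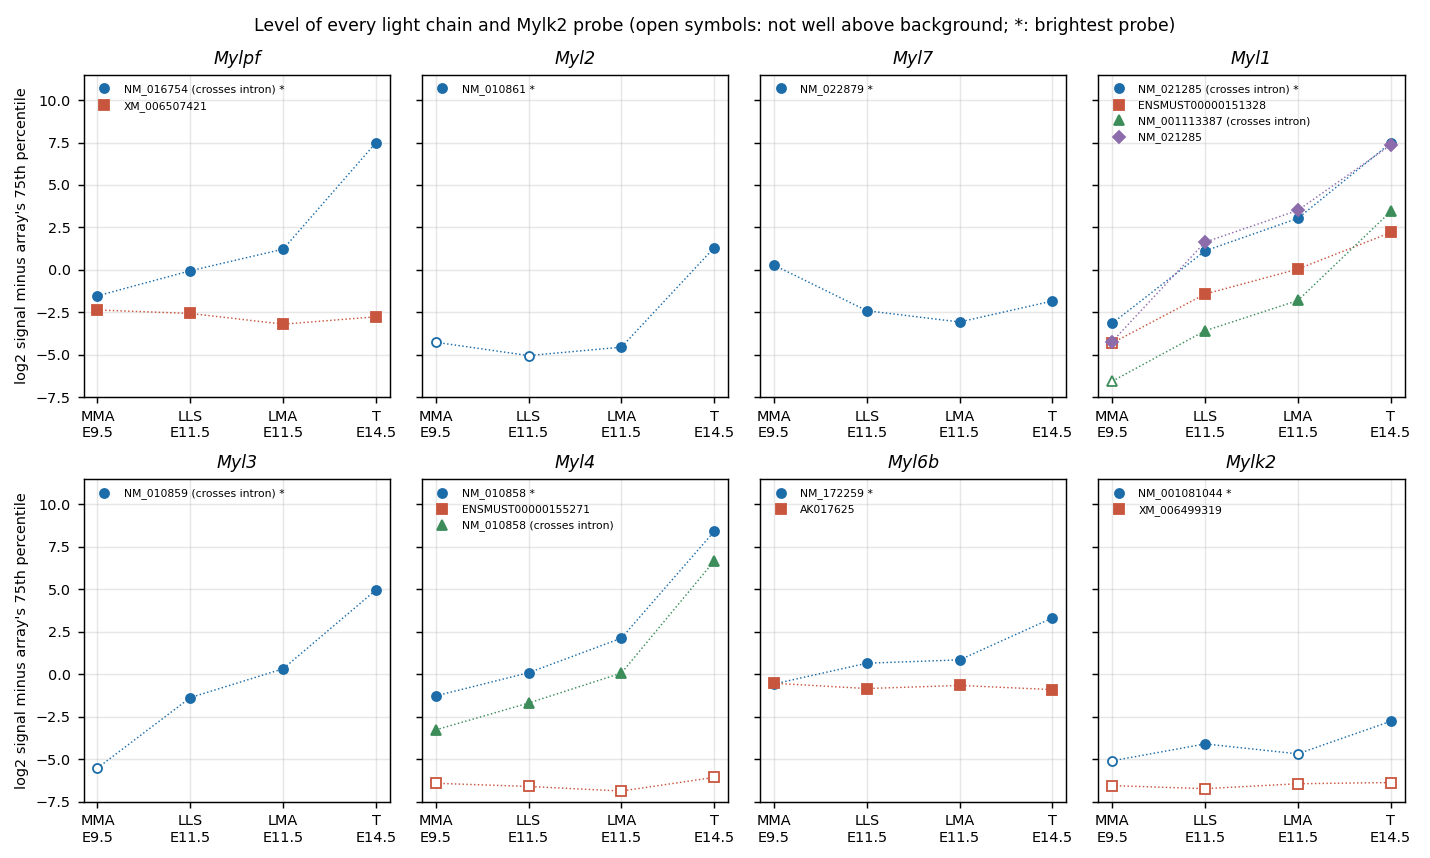
Level of each of the 16 probes in the 4 tissues, 1 panel per gene. The horizontal axis gives the tissue and stage, and the vertical axis gives log2 signal minus the 75th percentile of the array. Open symbols are values not well above background, the asterisk marks the brightest probe of a gene, and the dotted lines only join the points of a probe. The brightest probes of *Mylpf*, *Myl1*, *Myl3* and *Myl4* run from their lowest value in MMA to their highest in T, *Myl7* is highest in MMA, and the second probes of *Mylpf* and *Myl6b*, the latter on the opposite strand, are flat.

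Among the regulatory light chains, *Mylpf* encodes the chain of fast skeletal fibres. Its NM_016754 probe had a signal of 147 in MMA, 441 in LLS and 1183 in LMA, against 88156 in T. The 4 levels thus formed a series in which T stood far above the rest. The difference was 1.47 ± 0.21 for LLS minus MMA, 1.27 ± 0.20 for LMA minus LLS, and 7.54 ± 0.20 for T minus LLS, which is 186-fold. Only 2 of the 14859 genes measured in both T and LLS had a larger difference in that direction.

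The XM_006507421 probe of *Mylpf*, in contrast, read 82.3 in MMA, then 77.3, 55.5 and 72.5 in LLS, LMA and T, all well above background. Its widest difference, LMA minus MMA, was -0.83 ± 0.24, under 2-fold. For T minus LLS it gave -0.20 ± 0.25, so the 2 probes of this gene differed by 7.74 on the log2 scale in that comparison. Which transcript the XM_006507421 probe detects was not tested.

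*Myl2* encodes the regulatory chain of slow skeletal and ventricular muscle. Its signal was 22.1 in MMA and 13.8 in LLS, neither well above background, 21.7 in LMA, where it only just passed, and 1216 in T. T was therefore the only 1 of the 4 tissues with a level well clear of background. The gene was at least 53.0-fold higher in T than in LLS and 57.8-fold higher than in LMA (5.85 ± 0.34), which placed it at rank 37 of 15053 genes. With normexp background correction the log2 differences were smaller, 3.91 against LLS and 3.94 against LMA. No order among the 3 earlier tissues can be read from these values.

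*Myl7* encodes the regulatory chain of atrial muscle and went the other way. It read 513 in MMA, then 86.4, 60.6 and 138 in LLS, LMA and T, well above background in all 4. The E9.5 arch was thus the highest tissue for this gene and the lateral arch at E11.5 the lowest. The gene was 6.41-fold lower in LLS than in MMA (-2.68 ± 0.22) and 10.2-fold lower in LMA than in MMA (-3.34 ± 0.23). By those differences it was the 50th lowest of 14550 and the 38th lowest of 14676 genes. With normexp correction these differences were -2.04 and -2.48. T was above LMA by 1.24 ± 0.23, or by 0.76 and so under 2-fold with normexp correction, and above LLS by 0.57 ± 0.22, the latter under 2-fold.

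Among the essential light chains, *Myl1* encodes those of fast skeletal fibres. Its brightest probe read 47.8 in MMA, 991 in LLS and 4153 in LMA, against 87334 in T. Of the whole set this gene had the widest measured span, with T 1571-fold above MMA (10.62 ± 0.26), the 2nd highest of 14322 genes. Its LMA minus MMA difference of 6.18 ± 0.26 was the 3rd highest of 14676 genes. Already at E11.5 it was 19.2-fold higher in LLS than in MMA (4.26 ± 0.26), and it was 3.77-fold higher in LMA than in LLS (1.91 ± 0.20). The differences from the dim MMA level were smaller with normexp background correction: 9.25 for T, 4.80 for LMA and 2.96 for LLS.

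The *Myl1* probe that lacks the run shared with *Myl3* read 22.7 in MMA, 1417 in LLS and 5770 in LMA, against 80071 in T, all in the same order. For T minus LLS it gave 5.71 ± 0.20, against 6.36 ± 0.20 for the brightest probe. Its LLS minus MMA difference was 5.85 ± 0.35, larger than the 4.26 of the brightest probe. Its MMA signal only just passed background, as the dimmest value that passed on that array was 22.2, so the size of this difference is uncertain.

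The other *Myl1* probes address further transcript models and differed from these in the size of the late difference. The NM_001113387 probe (chr1:66976853-66981100, mm9) read 4.50 in MMA, not well above background, 38.1 in LLS, 146 in LMA and 5328 in T. The ENSMUST00000151328 probe (chr1:66991114-66991173, mm9) read 21.4 in MMA, not well above background, 170 in LLS, 525 in LMA and 2260 in T. All 4 *Myl1* probes therefore had T highest and LMA above LLS. Across them, LMA minus LLS lay between 1.47 and 1.91, while T minus LLS ranged from 3.63 (ENSMUST00000151328) to 7.02 (NM_001113387). The spread of 3.40 between probes for T minus LLS was far larger than the errors of 0.21 and 0.26 given to those values.

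*Myl3* encodes the essential chain of slow skeletal and ventricular muscle. It read 9.20 in MMA, not well above background, 176 in LLS, 634 in LMA and 15277 in T. The order was again MMA, LLS, LMA and T. T was 80.8-fold above LLS (6.34 ± 0.21) and LMA was 3.25-fold above LLS (1.70 ± 0.21), while LLS was at least 7.32-fold above MMA. That bound, 2.87 on the log2 scale, was 1.31 with normexp background correction, so only a difference of over 2-fold held under both. Its T minus LLS difference stood next to that of *Myl1*, at ranks 19 and 18 of 14859, and the 2 differed by less than their errors. The brightest *Myl1* probe shares 18 bases with this probe, and how much each detects of the other transcript was not tested.

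*Myl4* encodes the essential chain of embryonic and atrial muscle. Its brightest probe (chr11:104448441-104448500, mm9) read 174 in MMA, 485 in LLS and 2208 in LMA, against 166686 in T. T was 319.6-fold above LLS (8.32 ± 0.20), the largest difference of all 14859 genes measured in both tissues. LMA was 4.10-fold above LLS (2.04 ± 0.20), at rank 54 of 15294.

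The second probe for NM_010858, shown above, read 43.6 in MMA, 141 in LLS and 531 in LMA, against 49839 in T, and gave 8.36 ± 0.21 for T minus LLS. The 2 *Myl4* probes thus differed by 0.042 there, and by at most 0.32 in any comparison. Another *Myl4* probe, to ENSMUST00000155271 (chr11:104443893-104443952, mm9), was not well above background in any tissue, with signals of 4.32 to 7.30.

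*Myl6b* encodes an essential chain found in slow skeletal muscle and in nonmuscle cells. Its brightest probe, to NM_172259 (chr10:127931214-127931273, mm9), read 284 in MMA, 715 in LLS and 910 in LMA, against 4878 in T. T was 6.34-fold above LLS (2.67 ± 0.20), the smallest such difference of the 4 essential chain genes. LMA and LLS differed by 0.20 ± 0.20, no more than the error of the spots, unlike the other essential chains.

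The AK017625 probe, named *Myl6b* by the array design, lies on the plus strand (chr10:127932373-127932432, mm9), whereas the NM_172259 probe and the RefSeq *Myl6b* promoter lie on the minus strand. It therefore faces the opposite way from *Myl6b* and is not a reading of its sense transcript by these positions. It read 292 in MMA, then 254, 321 and 262 in LLS, LMA and T. These 4 values lay within 2-fold of each other. For T minus LLS it gave -0.063 ± 0.21, against 2.67 for the other probe.

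*Mylk2*, the kinase that phosphorylates the fast regulatory chain, was dim. Its NM_001081044 probe (chr2:152748725-152748784, mm9) read 12.3 in MMA and 19.7 in LMA, neither well above background, 26.6 in LLS and 72.0 in T. Only T exceeded the others by more than 2-fold: by 2.52-fold over LLS (1.33 ± 0.34), by at least 3.70-fold over LMA and by at least 2.79-fold over MMA. The XM_006499319 probe (chr2:152742582-152742641, mm9) read between 4.28 and 5.91 and was not well above background in any tissue. With normexp background correction the differences of the kinase fell under 2-fold, to 0.47 over LLS, 0.72 over LMA and 0.52 over MMA. The offset of 50 in that correction is of the size of these signals. It shrinks such differences in advance, so this setting could not decide whether they hold.

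**Figure D2:**
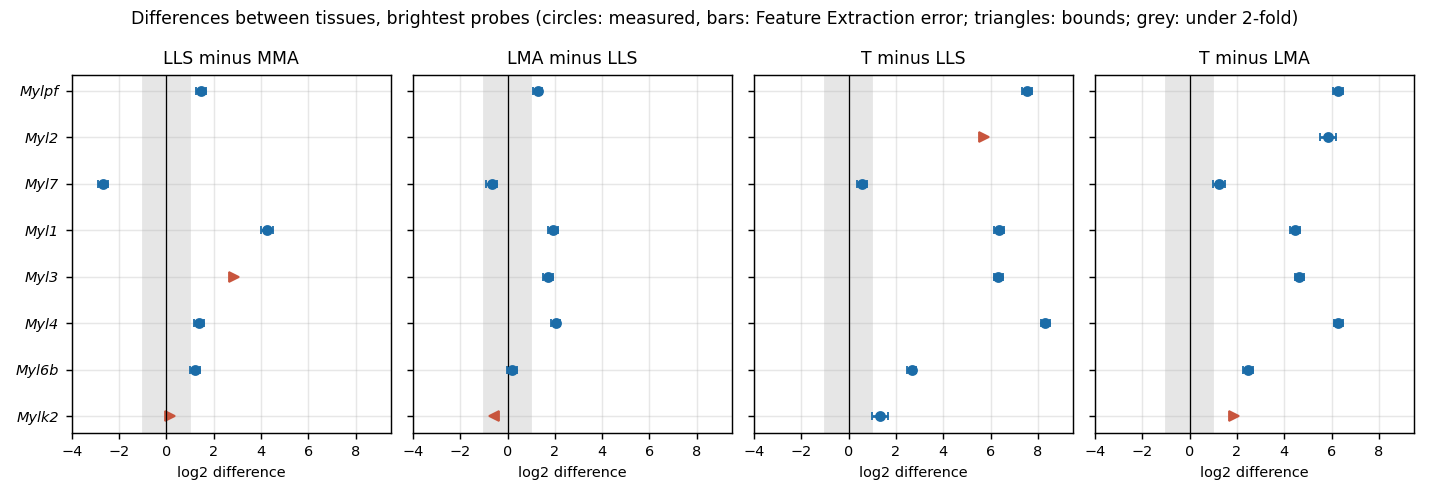
Differences between tissues for the brightest probe of each gene, on the log2 scale, in 4 of the 6 comparisons. Circles are measured differences with the Feature Extraction error as bars, triangles are bounds pointing away from the smaller size, and the grey band is under 2-fold. *Myl2* has no value in LLS minus MMA or in LMA minus LLS, where its levels were not well above background or left no size. *Myl4* and *Mylpf* lie farthest right in T minus LLS, at 8.32 and 7.54, and *Myl7* alone is far to the left in LLS minus MMA, at -2.68.

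**Figure D3:**
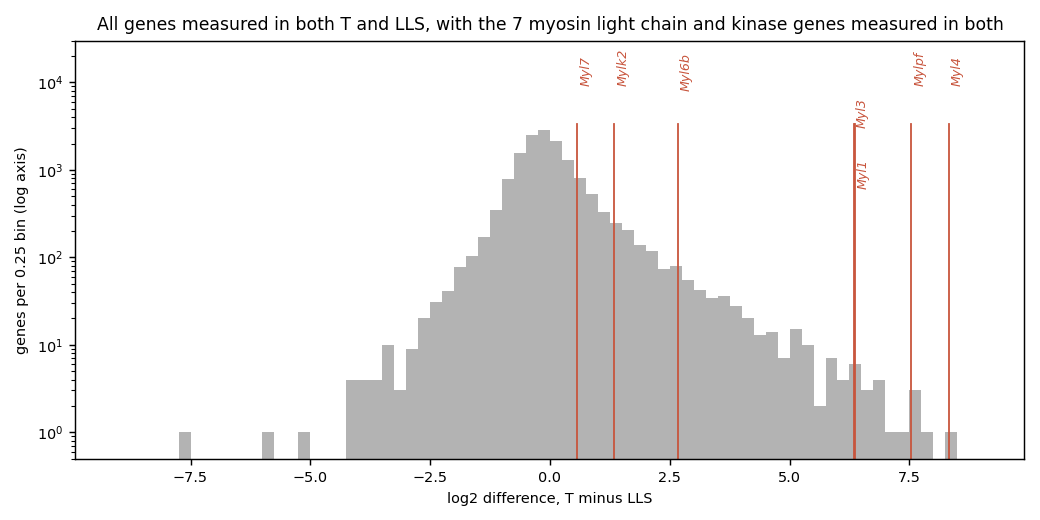
Number of genes in each bin of 0.25 of the log2 difference T minus LLS, over 14859 genes measured in both tissues, with a log axis for the number of genes. The lines mark the 7 genes of the set measured in both. *Myl4*, *Mylpf*, *Myl1* and *Myl3* lie in the far right tail, at ranks 1, 3, 18 and 19, whereas *Myl6b*, *Mylk2* and *Myl7* lie nearer the bulk, at ranks 323, 1073 and 2561.

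The promoters of these genes were examined because most of the set was highest in T. RefSeq promoters (GRCm38.p6, a different build from that of the probes) were matched for 7 of the 8 genes, with 2 for *Myl2*, and the 250 bases before each start were searched on both strands. The E-box CANNTG, the core bound by basic helix-loop-helix factors such as the myogenic regulators, was found in 7 of 8 promoters, and in 66.2% of all 32851 promoters. Its form CAGCTG, a subset of CANNTG matches, was found in 1 promoter each of *Myl1*, *Myl2* and *Mylpf*, and in 13.0% of all promoters. The CArG box, which serum response factor binds, was found in *Myl3* and *Myl7*, at 85 and 61 bases before the start, and in 1.47% of all promoters. The MEF2 site was found in none of the 8 windows (2.92% of all promoters). TATAAA was found in *Myl1* and in 1 promoter of *Myl2* (12.4%). The GC content ran from 46.8% to 66.0%, with a median of 52.4% over all promoters. Shown are both promoters with a CArG box, 1 of a gene highest in T and 1 of the gene highest in MMA, and the *Mylpf* promoter with its CAGCTG 51 bases before the start. Capitals mark matches to any of these motifs, which are letters in a window and not sites of binding:

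Myl3 (chr9:110763428-110763677, GRCm38.p6, plus strand): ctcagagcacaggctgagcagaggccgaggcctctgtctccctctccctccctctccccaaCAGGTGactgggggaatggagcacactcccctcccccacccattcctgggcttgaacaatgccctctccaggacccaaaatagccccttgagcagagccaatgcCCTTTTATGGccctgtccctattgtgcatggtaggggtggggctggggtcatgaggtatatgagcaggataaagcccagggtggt

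Myl7 (chr11:5898783-5899032, GRCm38.p6, minus strand): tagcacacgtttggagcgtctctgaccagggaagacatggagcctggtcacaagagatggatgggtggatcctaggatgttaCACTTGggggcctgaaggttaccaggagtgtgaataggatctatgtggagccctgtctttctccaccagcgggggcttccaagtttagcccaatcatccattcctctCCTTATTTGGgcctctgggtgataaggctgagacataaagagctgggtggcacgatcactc

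Mylpf (chr7:127211358-127211607, GRCm38.p6, plus strand): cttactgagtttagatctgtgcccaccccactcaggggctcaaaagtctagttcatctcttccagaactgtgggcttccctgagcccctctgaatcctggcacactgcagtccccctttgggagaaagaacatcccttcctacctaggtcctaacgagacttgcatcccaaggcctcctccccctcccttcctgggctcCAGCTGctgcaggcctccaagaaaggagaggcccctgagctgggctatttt

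The heavy chain list held striated muscle forms as well as nonmuscle and smooth muscle forms. Of its 13 genes, 12 could be compared in T against LLS, 6 were at least 2-fold higher and 2 lower (median 1.40). All 6 higher genes were striated muscle forms, and the 2 lower were *Myh10*, a nonmuscle form, and *Myh11*, of smooth muscle. *Myh3*, the embryonic heavy chain, read 5.29 in MMA, not well above background, then 596, 4066 and 78023 in LLS, LMA and T. *Myh8*, the perinatal heavy chain, read 39.5 in MMA, 291 in LLS and 1022 in LMA, against 30038 in T. T minus LLS was 6.93 for *Myh3* and 6.58 for *Myh8*, in the range of *Myl1* and *Myl3*. *Myh7*, the slow and ventricular heavy chain, read 301 in MMA, then 118, 356 and 4210 in LLS, LMA and T, and was higher in T than in LLS by 5.05. Other probes gave less: 4.16 for *Myh3*, from 2.05 to 3.99 for *Myh8*, and 0.78 for *Myh7*. *Myh13* and *Myh7b* were higher in T by 2.94 and 2.77.

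The adult fast heavy chains were low. *Myh4* was higher in T than in LLS by at least 1.98 on the log2 scale at a signal of 90.7, where another probe gave -0.090, while *Myh2* was not well above background in any tissue. *Myh1* was highest in LMA: it read 7.58 in MMA, not well above background, 44.1 in LLS, 193 in LMA and 56.7 in T. T minus LLS was -1.11 for *Myh10* and -1.03 for *Myh11*, although another *Myh11* probe gave 0.87.

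The light chains of nonmuscle and smooth muscle cells moved little. Of 5 such genes, 4 were measured and 1, *Myl9*, was at least 2-fold higher in T than in LLS (1.66). Its signal was 3157 in MMA, 7226 in LLS and 14352 in LMA, against 24588 in T. *Myl6*, *Myl12a* and *Myl12b*, which serve most cells, differed by 0.52, 0.48 and -0.18 between T and LLS. *Myl10* was not well above background in any tissue.

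The next list held 16 kinase, calmodulin and phosphatase genes that set light chain phosphorylation. Of these, 2 were at least 2-fold higher in T than in LLS (13.0% of all genes) and 1 was lower (6.0%), with a median of 0.13. *Mylk4*, a striated muscle relative of *Mylk2*, read 4.85 in MMA, not well above background, 125 in LLS, 300 in LMA and 1178 in T. It was thus higher in T than in LLS by 3.13, and by 1.39 with another probe. *Ppp1r14c*, an inhibitor of protein phosphatase 1, was higher by 2.59. *Mylk3*, the cardiac light chain kinase, read 169 in MMA, then 50.2, 49.4 and 10.2 in LLS, LMA and T, the last not well above background. It was lower in LLS than in MMA by -1.86 with another probe at -2.07, and T minus LLS had a bound of -1.02, with another probe at -0.62. Both *Mylk3* and *Myl7* were thus highest in the E9.5 arch.

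Of 4 chaperones of myosin assembly, 1, *Unc45b*, the striated muscle form, was at least 2-fold higher in T than in LLS. It read 44.1 in MMA, 125 in LLS and 570 in LMA, against 4874 in T, a T minus LLS difference of 5.18, and its order over the tissues was that of *Myl4*. *Unc45a*, the general form, and *Hsp90aa1* differed by -0.24 and 0.043. *Smyd1*, a methyltransferase of myofibril assembly, differed by 0.22 by its brightest probe and by 3.17 by another.

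**Figure D4:**
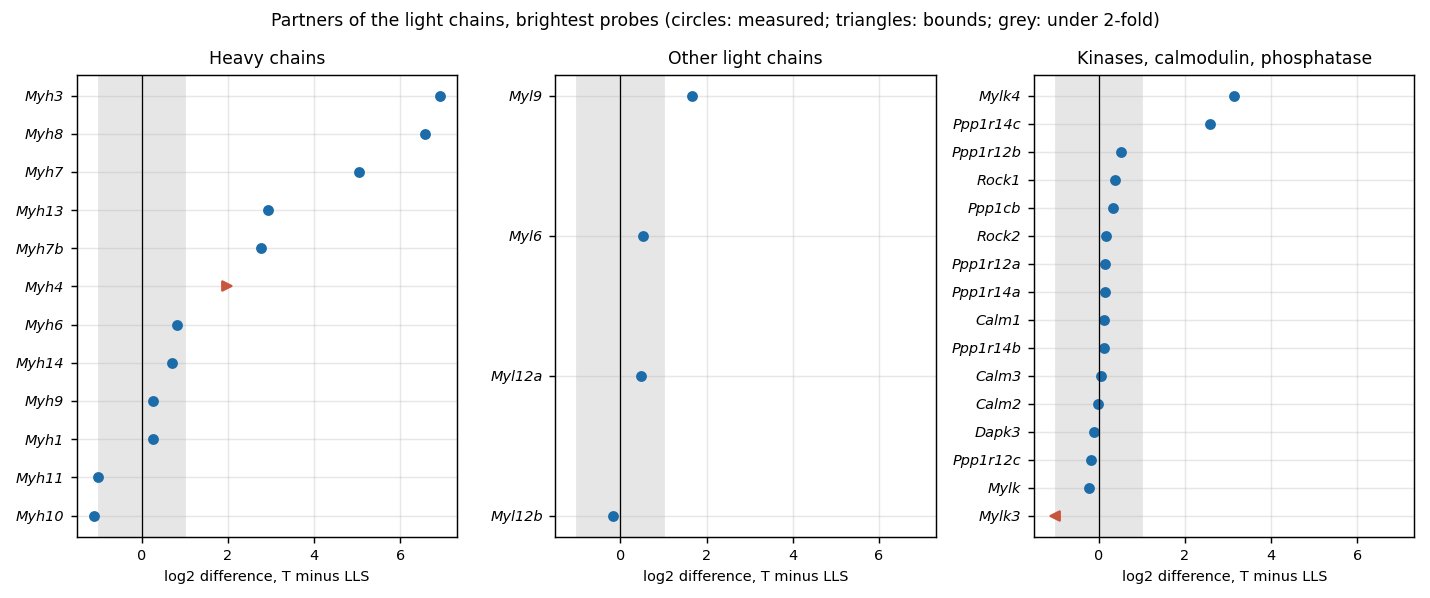
Difference T minus LLS on the log2 scale, by the brightest probe, for the heavy chains, the other light chains, and the kinase, calmodulin and phosphatase genes. Circles are measured differences, triangles are bounds and the grey band is under 2-fold. The heavy chains spread from *Myh3* at 6.93 to *Myh10* at -1.11, while 13 of the 16 genes in the right panel lie inside the band.

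Skeletal muscle markers were measured in all 4 tissues, in increasing number. Of 18 skeletal muscle differentiation genes, 10 were well above background in MMA, against 15, 16 and 18 in LLS, LMA and T. Of those compared, 8 of 15 were at least 2-fold higher in LLS than in MMA, 6 of 16 in LMA than in LLS, and 15 of 18 in T than in LLS (median 4.10). *Myog*, the differentiation factor of myoblasts, read 4.70 in MMA, not well above background, 1357 in LLS, 4235 in LMA and 11584 in T. *Myod1* read 4.65, not well above background, 432, 913 and 1350 in the same order. Both factors were thus not detected above background in the E9.5 arch, where the brightest probes of *Mylpf*, *Myl1*, *Myl4* and *Myl6b* were above it. There the NM_001113387 and ENSMUST00000151328 probes of *Myl1* were not well above background, and *Myl6b* is also a chain of nonmuscle cells. *Ckm*, muscle creatine kinase, was above background only in T, at 2908.

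Markers of other cells also differed between the tissues. Of 7 smooth muscle markers, 6 could be compared in T against LLS, 3 were higher (*Tagln* by 2.61, *Cnn1* by 1.97 and *Smtn* by 1.19) and 1, *Myh11*, was lower. These counts depend on the probe. By other probes *Myh11* gave 0.87, *Smtn* 0.94 and *Acta2* from 1.94 to 2.06, against 0.89 by the brightest *Acta2* probe. The 6 arch mesenchyme markers were all at least 2-fold lower in T than in LLS, with a median of -2.09. Of 8 endothelial markers, 5 were at least 2-fold higher in LMA than in LLS, the comparison in which 4 light chains were also higher, and 0 were so between T and LLS. Of 8 erythroid markers 1 was higher and 5 were lower in T than in LLS, and of 8 neuron markers 2 were higher and 2 lower. The part of these cell types in the light chain differences was not tested. Of 6 cerebellum markers, checked because the labels name that tissue in the extraction, *Atoh1*, *Gabra6* and *Calb1* were not well above background in any tissue. *Zic1* was above it in all 4 at 37.2 to 72.9, and *En2* in MMA and LMA at 29.9 and 32.8. *Pcp2* read 46.7 in MMA, then 584, 1560 and 43.2 in LLS, LMA and T, and so was higher in LMA than in LLS by 1.27, as 4 light chains were. The part of these transcripts in the light chain differences was not tested.

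Cardiac markers bear on *Myl7*, *Myl4*, *Myl2* and *Myl3*, which heart muscle also uses. By the brightest probe, of 12 cardiac markers other than *Myl7*, 4 were well above background in MMA, against 7, 7 and 9 in LLS, LMA and T. Counting a marker with any probe above background, 5 were so in MMA and the other counts were as before. Their signal, each array's summed and divided by its 75th percentile, was 1.08 in MMA, 3.75 in LLS and 5.48 in LMA, against 148 in T. MMA, the tissue highest in *Myl7*, had the lowest sum. The sum adds probes of unlike response, so the brightest weigh most, in T *Sln* at 56125 and *Tnnt2* at 12756. Several of the markers, such as *Tnnt2* and *Sln*, are also transcribed in embryonic skeletal muscle.

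In MMA the 4 markers measured by their brightest probe were *Nkx2-5* at 200, *Myh6* at 88.2, *Tnnt2* at 38.5 and *Tnni3* at 31.7. All 4 were higher in LLS, by 1.69, 1.92, 1.84 and 1.53 in that order, while *Myl7* was lower by -2.68. For *Myh6* and *Tnnt2* this rests on 1 probe each. The second *Myh6* probe was not well above background in any tissue, and the further *Tnnt2* probes in neither MMA nor LLS. Another *Tnni3* probe gave 1.115 for LLS minus MMA. The heart transcription factor *Tbx20* was above background in MMA only by probes other than its brightest. Of its 5 probes, the brightest, above background only in T, read 5.18 in MMA, while another 2 were above background only in MMA, at 55.7 and 25.8. These gave bounds of -1.50 and -0.39 for LLS minus MMA, the direction of *Myl7*, and the part of cardiac cells in the *Myl7* level was not tested. *Nppa*, *Nppb*, *Hcn4*, *Bmp10* and *Gata4* were not well above background in MMA by any probe, nor were *Ryr2* and *Sln*. *Gata4* was not well above background in any tissue, and *Nppb* was above it only in T, at 495.

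**Figure D5:**
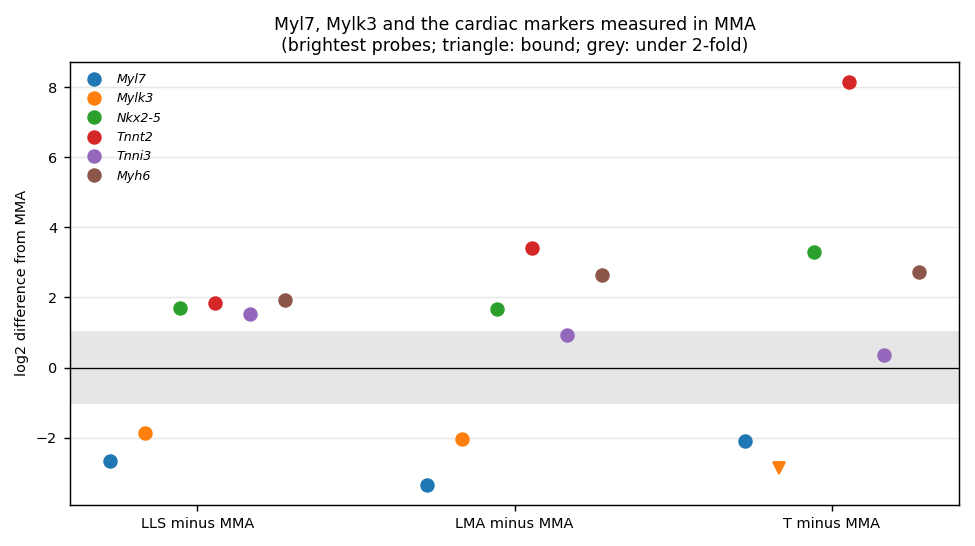
Log2 difference of LLS, LMA and T from MMA for *Myl7*, for *Mylk3* of the kinase list, and for the 4 cardiac markers well above background in MMA by their brightest probe. Circles are measured differences, the triangle is a bound and the grey band is under 2-fold. *Myl7* and *Mylk3* lie below 0 in all 3 tissues, whereas *Nkx2-5*, *Tnnt2* and *Myh6* lie above 1 in all 3 and *Tnni3* does so only in LLS.

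The profiles most like those of 3 light chains were sought among 12734 genes, as the smallest root mean square difference of log2 level over the 4 tissues after each profile was centred on its own mean. For *Mylpf* these were *Tceal7* (0.40), *Tnnt2* (0.57) and *Tnni2* (0.60), the latter both troponin subunits of the thin filament. *Tceal7* read 52.1 in MMA, 265 in LLS and 399 in LMA, against 52328 in T. For *Myl4* they were *Tceal7* (0.57), *Acta1*, skeletal actin (0.67), and *Myh8* (0.71). For *Myl7* they were *Plcxd1* (0.19), *Cobll1* (0.20) and *Plcg2* (0.28). *Plcg2*, a phospholipase C, read 1331 in MMA, then 255, 213 and 287 in LLS, LMA and T, high in the E9.5 arch alone, as *Myl7* was. With 4 tissues these distances are descriptions of likeness only.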

How the data were processed

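RNA from 4 pooled tissues was measured on single-colour Agilent arrays, all on 1 slide. The intensity values were deposited by the authors as background-subtracted, detrended signals from Agilent Feature Extraction, version 10.7.1.1 per the file headers and 9.5.1.1 per the submitters' processing notes. A deposited value table with intensity between-array normalized in a way not given in the sources used here served as an alternative. Probe positions are those of the file headers (mm9). No mm9 annotation was used here.

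Flagged spots and controls were left out (4 probes), and repeated spots were averaged. Log2 of the signal minus the array's 75th percentile was used. A value not well above background was raised, where lower, to the dimmest value on the same array that passed. Genes are represented by their brightest probe, that with the highest mean signal over all arrays, a choice that favours probes high in T. With 1 array per tissue no test was made, and calls are of at least 2-fold. The counting was checked on simulated data in which every value was taken as well above background, so the handling of dim values and bounds was not checked.

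The members and the 12 gene lists, 2 of them (arch mesenchyme and cerebellum) added after the files were read, were chosen with earlier results of these data known. Named are all members and their probes, list genes, and the 3 nearest profiles of *Mylpf*, *Myl4* and *Myl7*. Tools were R 4.3.3 with limma 3.58.1, and Python 3.11.15 with pandas 2.3.3.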

Additional observations from a re-analysis of the deposited data

How the results depend on the processing

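The 44 differences of the 8 genes were recomputed with quantile normalization, cyclic loess, normexp background correction, the authors' value table, no floor, the median over probes and each other probe. Of 39 differences of at least 2-fold, 39 stayed so in the same direction with quantile normalization, cyclic loess and the value table. The all-gene median nevertheless shifted by up to 0.271 (T minus MMA) under cyclic loess. With no floor 39 also stayed so, which was certain in advance, because the floor only raises dim values and so only shrinks differences. Normexp, with its offset of 50, makes differences from dim levels smaller by construction. With it 35 stayed at least 2-fold, while *Mylk2* in T minus LLS, LMA and MMA and *Myl7* in T minus LMA (0.76) fell under 2-fold. With the median over probes 34 stayed so, and 3 genes were higher in LLS minus MMA, 3 in LMA minus MMA and 3 in LMA minus LLS. For *Myl6b* that median took in the AK017625 probe of the opposite strand. Its falls under 2-fold, to 0.46 in LLS minus MMA and 0.64 in LMA minus MMA, therefore do not rest on the sense transcript alone. Among 35 readings of such differences by another probe named for the gene, AK017625 included, 23 stayed at least 2-fold in the same direction. At 4-fold in place of 2-fold, 3 genes differed in LLS minus MMA, 5 in LMA minus MMA and 1 in LMA minus LLS. In T, 6 differed from LLS, 6 from LMA and 7 from MMA. The share of all genes at 4-fold is not given here, so these counts cannot be set against it. The AK017625 probe, named *Myl6b* but on the opposite strand, turned the sign in LLS minus MMA (-0.31), LMA minus MMA (-0.13), T minus LLS (-0.063), T minus LMA (-0.24) and T minus MMA (-0.37). The XM_006507421 probe of *Mylpf* did so in LLS minus MMA (-0.20), LMA minus MMA (-0.83), LMA minus LLS (-0.63), T minus LLS (-0.20) and T minus MMA (-0.40). The cause was not tested. The 4 arrays limit the precision, and values not well above background, as for *Mylk2* and *Myl2* in 2 tissues each, give bounds only. No paired analysis was possible because each tissue has 1 array.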
